A study of Mus musculus with 24 samples.

Results

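Rnase2a, Klk1b11, Fbp1, Rbp4 and Cyp4a12a are 5 genes, of 18820 measured, that lay far higher in dendritic cells than in 7 other mouse cell types and that are not usual dendritic cell markers. They were chosen by that lead, their measured DC level against the other groups in the same arrays described here, so their levels in dendritic cells are given as a description, with no test. Each is read by a single probeset (a set of probes for 1 gene) of the Affymetrix Mouse Gene 1.0 ST array. The study compared microglia-like cells derived from pluripotent cells with their source and with primary cells, 3 arrays for each of 8 groups. The question here is where else, and by how much, these 5 transcripts vary.

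Dendritic cells (DC) and 2 kinds of macrophage, of bone marrow (bm-Mac) and of the peritoneum (p-Mac), came from adult C57BL/6NCr mice, and the neural stem cells (NSC) from embryos of that strain at day 15 to 18. Adult microglia (ad-MG), microglia of postnatal day 5 (neo-MG), the induced pluripotent stem cells (iPSC) and the GFP-positive microglia derived from such cells (iPS-MG) were of the strain written C57BL/6NCr - Cx3cr1gfp/+, in which gfp takes the place of 1 Cx3cr1 copy. Thus DC shared the strain without gfp with bm-Mac, p-Mac and NSC. Per the labels' protocols, iPSC were kept on a fibroblast feeder layer with leukemia inhibitory factor. The medium of cells called gMG there, a name left undefined, held the cytokines GM-CSF, M-CSF and IL-3. The remaining cells, DC among them, were kept in DMEM/F12 with serum, and no cytokine is named for DC. No label tells if replicates stem from different mice or dishes, so each p-value below reflects the scatter of the arrays at hand, perhaps a technical one.

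Dendritic cells take up antigen and present it to T cells, and their known transcripts are those of antigen presentation, chemokines and lectin receptors. The 5 genes belong to other fields of physiology. Rnase2a, also named Ear11, is a secreted eosinophil-associated ribonuclease. Klk1b11 is a glandular kallikrein, a serine protease of a cluster best known from the salivary gland. Fbp1 encodes fructose-1,6-bisphosphatase, an enzyme of gluconeogenesis in liver and kidney. Rbp4 carries retinol in plasma and is made chiefly by liver and fat. Cyp4a12a is a cytochrome P450 that hydroxylates fatty acids, arachidonic acid included, and is known as a male-predominant gene of mouse kidney.

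The sequences just before the start sites are shown for Klk1b11 and for its 3 single-gene cluster neighbours with the largest lead of DC, because these genes stood highest in DC together. RefSeq (GRCm38.p6) held a window for 4 of the 5 genes. Each run is the 250 bases before the start site on the gene's own strand, 5′ to 3′, and capitals mark the 2 runs of 12 bases or more that all 4 windows share.
Klk1b11: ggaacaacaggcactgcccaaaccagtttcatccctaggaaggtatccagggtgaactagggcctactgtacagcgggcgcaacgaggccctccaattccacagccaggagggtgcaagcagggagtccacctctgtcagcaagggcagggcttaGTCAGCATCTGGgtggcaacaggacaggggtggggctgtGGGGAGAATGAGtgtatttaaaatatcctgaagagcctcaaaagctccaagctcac
Klk1b1: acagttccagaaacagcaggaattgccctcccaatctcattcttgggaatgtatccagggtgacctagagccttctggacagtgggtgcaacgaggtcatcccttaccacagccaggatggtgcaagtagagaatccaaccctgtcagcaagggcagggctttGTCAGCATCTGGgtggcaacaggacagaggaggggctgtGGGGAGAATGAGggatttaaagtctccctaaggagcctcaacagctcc
Klk1b9: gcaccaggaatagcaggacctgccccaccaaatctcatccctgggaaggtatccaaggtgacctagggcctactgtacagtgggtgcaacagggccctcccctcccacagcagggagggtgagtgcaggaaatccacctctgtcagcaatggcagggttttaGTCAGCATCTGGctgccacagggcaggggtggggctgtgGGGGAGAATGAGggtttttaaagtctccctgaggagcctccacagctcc
Klk1b27: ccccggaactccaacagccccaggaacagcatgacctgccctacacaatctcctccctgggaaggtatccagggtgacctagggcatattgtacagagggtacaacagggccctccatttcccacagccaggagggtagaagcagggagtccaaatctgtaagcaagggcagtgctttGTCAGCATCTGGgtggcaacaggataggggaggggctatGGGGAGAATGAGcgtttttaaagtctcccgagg
The Klk1b11 window is at chr7:43995627-43995876, that of Klk1b1 at chr7:43966501-43966750, that of Klk1b9 at chr7:43975811-43976060 and that of Klk1b27 at chr7:44052040-44052289, all on the plus strand. In global alignments the Klk1b11 window had 77.7% identity with Klk1b1, 78.4% with Klk1b9 and 71.4% with Klk1b27. Between the windows of different member genes, identity was 45.8% to 50.2%. The shared run GTCAGCATCTGG began 95 bases before the Klk1b11 start and occurred in 0.0487% of 32851 windows. These were 16 windows of 14 genes, of which 10 had a symbol beginning with Klk1. Some kallikreins outside the Klk1b group have such a symbol too. The run GGGGAGAATGAG began 56 bases before the Klk1b11 start and occurred in 0.0274% of the windows. Those belonged to 9 genes, 8 of them with a symbol beginning with Klk1. Both shares describe sequence that the kallikrein cluster has in common. They carry no information on a bound factor.

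For Fbp1 and Rbp4 the windows are shown because each held 1 match to the 7 short motifs searched on both strands. Capitals mark that match.
Fbp1: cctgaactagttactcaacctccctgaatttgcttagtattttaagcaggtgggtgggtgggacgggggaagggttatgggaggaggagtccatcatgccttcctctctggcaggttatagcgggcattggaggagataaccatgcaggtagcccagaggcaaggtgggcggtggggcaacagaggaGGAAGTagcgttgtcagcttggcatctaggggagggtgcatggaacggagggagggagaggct
Rbp4: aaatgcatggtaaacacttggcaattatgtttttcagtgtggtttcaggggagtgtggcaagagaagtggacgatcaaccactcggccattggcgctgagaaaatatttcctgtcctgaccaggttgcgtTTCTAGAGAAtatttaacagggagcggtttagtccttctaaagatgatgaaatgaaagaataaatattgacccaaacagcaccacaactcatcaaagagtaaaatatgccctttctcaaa
The Fbp1 window is at chr13:62888283-62888532 and the Rbp4 window at chr19:38125322-38125571, both on the minus strand. The TATA box TATAAA was present in 12.4% of all windows. A STAT-type site, TTC and GAA parted by 3 bases of any kind, was in 7.02%, and the form parted by 4 bases in 5.85%. The ETS core GGAAGT was in 19.7%. The nuclear receptor half-site AGGTCA was in 14%. An IRF-type repeat, GAAA given 2 times with 2 bases of any kind between, was in 2.98%, and the C/EBP palindrome TTGCGCAA in 0.164%. Motifs that overlapped were counted separately. Fbp1 had GGAAGT at 63 bases before its start, and Rbp4 had the STAT-type form with 4 bases between at 120 bases before the outer of its 2 listed starts. The inner Rbp4 window held TATAAA at 28 bases before the start. No match to the 7 motifs was found in the windows of Rnase2a and Klk1b11. AGGTCA was in the windows of Klk1b1, Klk1b9 and Klk1b27. Klk1b1 also had the STAT-type form with 4 bases between, at 211 bases before its start. A match here is a run of letters and not a shown site.

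All levels are log2 values from robust multi-array averaging, in which 1 unit is a doubling, and a level is not compared between genes because probes differ in brightness. In bulk RNA a lower level can come from fewer expressing cells or from less RNA per cell, and these cannot be told apart. No detection calls were used, so no low level here is called absent.

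Rnase2a was at 13.46, 13.48 and 13.29 in the 3 DC arrays. It was at 6.47, 6.52 and 6.34 in p-Mac and at 6.09, 5.78 and 5.99 in ad-MG. The bm-Mac arrays were at 5.74, 5.77 and 5.66. DC stood apart from every other array, p-Mac lay above ad-MG without overlap, and ad-MG above bm-Mac without overlap. In iPS-MG the level was 5.52, 5.77 and 5.58, and in neo-MG 5.64, 5.54 and 5.23. NSC were at 5.50, 5.30 and 5.50, and iPSC at 5.30, 5.23 and 5.32. From bm-Mac down to iPSC each group overlapped with the next. The DC mean of 13.41 ± 0.11 (SD, n = 3) exceeded the p-Mac mean of 6.44 ± 0.089 (SD, n = 3) by 6.96, a ratio of 125-fold.

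Klk1b11 was at 13.66, 13.70 and 13.60 in DC. In bm-Mac it was at 9.05, 9.0 and 8.54, and in p-Mac at 8.58, 8.19 and 8.56. Of the 5 genes it was the one with a marked middle level, held by both macrophage groups, which overlapped with each other and with no other group. The ad-MG arrays were at 6.65, 6.32 and 6.53, above NSC at 6.15, 6.23 and 6.02. In iPS-MG it was at 6.32, 5.94 and 5.98, in neo-MG at 5.95, 6.35 and 5.82, and in iPSC at 6.24, 5.33 and 5.44. These last 4 groups overlapped, and iPSC replicate 1 lay far from its 2 companions. The lowest ad-MG array was below the highest array of iPS-MG and that of neo-MG. The DC mean of 13.65 ± 0.051 (SD, n = 3) exceeded the bm-Mac mean of 8.86 ± 0.28 (SD, n = 3) by 4.79, a ratio of 27.6-fold, and the iPSC mean by a ratio of 253-fold.

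Fbp1 was at 13.79, 13.83 and 13.84 in DC, with the smallest spread of the 5 genes. NSC were at 7.04, 6.77 and 6.65, bm-Mac at 6.64, 6.64 and 6.57, and iPSC at 6.61, 6.74 and 6.43. In p-Mac it was at 6.56, 6.44 and 6.58. In the order of means below DC, NSC and bm-Mac were the only adjacent groups that did not overlap. The iPS-MG arrays were at 6.53, 6.33 and 6.49, the neo-MG arrays at 6.13, 6.39 and 6.43, and the ad-MG arrays at 6.35, 6.11 and 6.32. All 3 microglial groups thus lay at the lower end. The DC mean of 13.82 ± 0.027 (SD, n = 3) exceeded the NSC mean of 6.82 ± 0.20 (SD, n = 3) by 7.0, a ratio of 128-fold.

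Rbp4 was at 13.25, 13.22 and 13.16 in DC. In ad-MG it was at 7.91, 7.67 and 7.59, in NSC at 7.77, 7.19 and 7.43, and in iPS-MG at 7.34, 7.49 and 7.31. Adult microglia came next after DC but overlapped with NSC. The iPSC arrays were at 7.14, 7.18 and 7.22, p-Mac at 7.02, 7.29 and 7.22, neo-MG at 6.91, 7.19 and 6.65, and bm-Mac at 6.81, 6.91 and 6.94. The lowest 4 groups overlapped in a chain, and bm-Mac stood last. The DC mean of 13.21 ± 0.045 (SD, n = 3) exceeded the ad-MG mean of 7.72 ± 0.17 (SD, n = 3) by 5.49, a ratio of 44.9-fold.

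Cyp4a12a was at 11.70, 11.84 and 11.64 in DC. The p-Mac arrays were at 5.71, 5.95 and 5.97, bm-Mac at 5.74, 5.84 and 5.91, and iPS-MG at 5.67, 5.89 and 5.91. In neo-MG it was at 5.67, 6.00 and 5.80, in ad-MG at 5.81, 5.63 and 5.74, in iPSC at 5.59, 5.65 and 5.74, and in NSC at 5.54, 5.72 and 5.52. Outside DC this gene was nearly flat, and each group overlapped with its neighbour in the order. The DC mean of 11.73 ± 0.10 (SD, n = 3) exceeded the p-Mac mean of 5.87 ± 0.14 (SD, n = 3) by 5.85, a ratio of 57.8-fold.

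**Figure D1:**
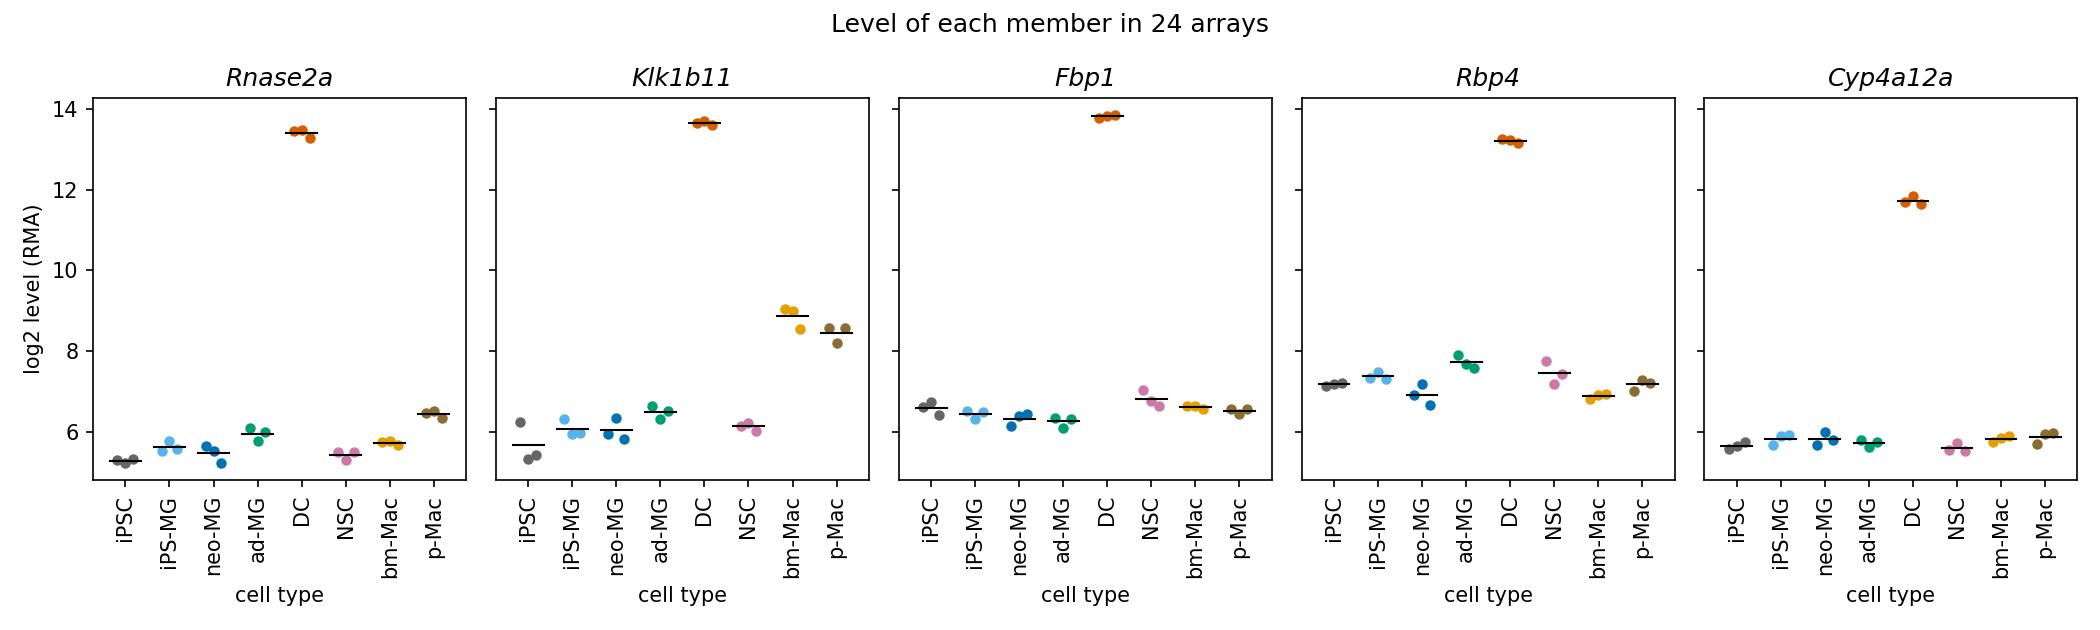
Log2 level of Rnase2a, Klk1b11, Fbp1, Rbp4 and Cyp4a12a (y axis) in the 24 arrays, by cell type (x axis); points are arrays and bars are group means of 3 arrays. All 3 DC arrays stand above the other 21 for each gene, and Klk1b11 alone has a middle level, at 8.86 in bm-Mac and 8.45 in p-Mac.

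The lead of DC can be set against that of all genes, as a description of how the genes were chosen. The lead is the DC mean minus the next highest group mean, and its median over the 18820 genes was -0.39. DC had the highest mean for 1840 genes, which is 9.78%. In 1050 genes, 5.58%, all DC arrays lay above every other array. DC was at least 2-fold above each of the 7 groups with limma's Benjamini-Hochberg adjusted p under 0.05 in each for 146 genes, 0.776% of those tested, and the 5 genes are among them by choice. Their lowest DC array exceeded the highest array of any other group by 6.77 for Rnase2a, 4.55 for Klk1b11, 6.75 for Fbp1, 5.25 for Rbp4 and 5.64 for Cyp4a12a.

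By size of lead, Fbp1 was first of all genes, Rnase2a came next, Cyp4a12a was at rank 4, Rbp4 at rank 5 and Klk1b11 at rank 9. Between them stood Klk1b1 with 6.14, Cyp4a12b with 5.21, the chemokine Ccl17 with 5.08 and the chitinase-like gene Chil4 with 4.92. Just below Klk1b11 was Klk1b27 with 4.59. The order then went on with a drop to Insl6, an insulin-like peptide, at 3.92. Next were Irf4, a transcription factor of dendritic cells and lymphocytes, at 3.66, the zinc transporter Slc39a2 at 3.56 and Klk1b9, also at 3.56. Pdcd1lg2, which encodes the checkpoint ligand PD-L2, had a lead of 3.34. In all, 17 genes had a lead of at least 3. Of the 15 genes named here, 4 members of the Klk1b cluster and both Cyp4a12 genes are close relatives within the set.

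**Figure D2:**
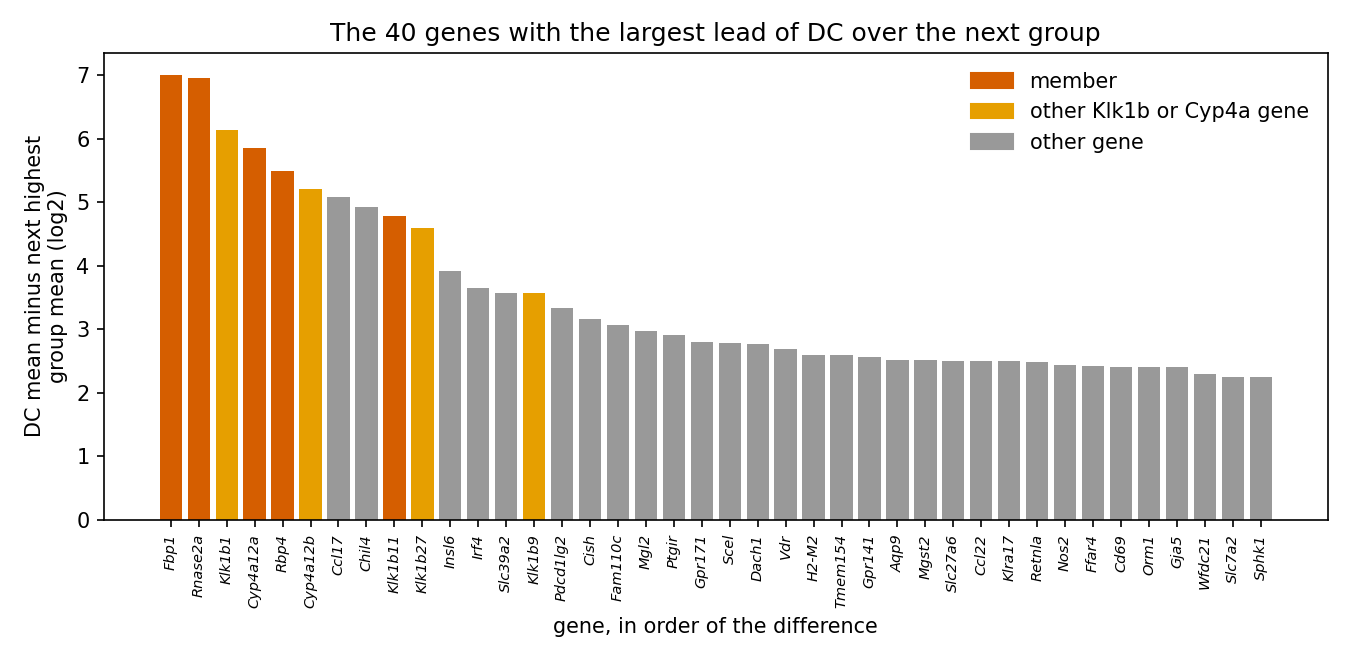
DC mean minus the next highest group mean (y axis, log2) for the 40 genes with the largest such lead (x axis, in order); bars are coloured for the 5 genes, for other Klk1b or Cyp4a genes and for the rest. The 5 genes hold ranks 1, 2, 4, 5 and 9, with leads from 7.0 down to 4.79.

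How the 5 genes varied among the other cell types was not used to choose them, and was tested in the 21 arrays without DC. Klk1b11, the kallikrein, varied most, with group means spanning 3.19 from bm-Mac to iPSC (limma F test, Benjamini-Hochberg adjusted p = 1.39e-14). Rnase2a, the ribonuclease, spanned 1.16 from p-Mac to iPSC (limma adjusted p = 6.26e-10), and Rbp4, the retinol carrier, 0.84 from ad-MG to bm-Mac (limma adjusted p = 7.29e-06). Fbp1 spanned 0.56 from NSC to ad-MG (limma adjusted p = 0.000206). Cyp4a12a spanned 0.28 from p-Mac to NSC (limma adjusted p = 0.0378). All 5 passed this test, as did 96.1% of all genes, so passing it does not set them apart. The Cyp4a12a result was lost, with limma adjusted p between 0.051 and 0.113, without iPSC replicate 1 or 2, iPS-MG replicate 2 or 3, NSC replicate 1 or 3, bm-Mac replicate 2 or 3, or p-Mac replicate 2 or 3.

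Klk1b11 was higher in bm-Mac than in both kinds of primary microglia, and higher in p-Mac than in neonatal microglia. The difference bm-Mac minus neo-MG was 2.83 ± 0.18 (SE, limma adjusted p = 4.52e-12), bm-Mac minus ad-MG 2.37 ± 0.18 (SE, limma adjusted p = 6.91e-11) and p-Mac minus neo-MG 2.41 ± 0.18 (SE, limma adjusted p = 4.56e-11). In each of these 3 comparisons Klk1b11 was the 1 gene of the 5 called at adjusted p under 0.05 and 2-fold, against 5.23%, 8.95% and 9.12% of all genes. None of the 5 was called in the other 5 pairs tested, in which 6.17% (bm-Mac minus p-Mac), 5.71% (ad-MG minus neo-MG), 0.0266% (iPS-MG minus neo-MG), 22.2% (iPS-MG minus iPSC) and 17.2% (NSC minus iPSC) of all genes were. By adjusted p alone, without the 2-fold minimum, limma counted 3, 3, 0, 1 and 3 of the 5 genes there, against 64%, 43.9%, 0.197%, 64.4% and 65.8% of all genes. In the first 3 comparisons they were 3, 4 and 2 of the 5, against 40.9%, 57.1% and 72.2%. These counts of small differences depended on scaling and on single arrays. Centring arrays on their medians turned the count for iPS-MG minus iPSC from 1 to 4, and that for bm-Mac minus neo-MG from 3 to 1. A second quantile normalization turned the count for NSC minus iPSC from 3 to 0 and that for bm-Mac minus neo-MG from 3 to 1. With single arrays left out, the count was 0 to 3 for NSC minus iPSC, 1 to 3 for bm-Mac minus p-Mac and for bm-Mac minus neo-MG, 2 to 4 for p-Mac minus neo-MG and 1 to 2 for iPS-MG minus iPSC. At an unadjusted p under 0.05, with all arrays on the deposited scale, the counts in the other 5 pairs were 3, 3, 1, 2 and 3. The share of all genes at that threshold was not counted, so nothing is concluded from these unadjusted counts. The counts by adjusted p, beside the shares given above, do not set the 5 genes apart.

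Rnase2a was 0.97 ± 0.095 (SE) higher in p-Mac than in neo-MG (limma adjusted p = 4.48e-09), just under 2-fold. Without neo-MG replicate 1, neo-MG replicate 2 or p-Mac replicate 3 that difference was 1.06, 1.01 or 1.02 and passed the 2-fold minimum. Between the macrophages, Rnase2a was lower in bm-Mac than in p-Mac, with bm-Mac minus p-Mac at -0.72 (limma adjusted p = 8.71e-07). It was also 0.48 higher in ad-MG than in neo-MG (limma adjusted p = 0.000183).

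Rbp4 was 0.80 ± 0.12 (SE) higher in adult than in neonatal microglia (limma adjusted p = 7.75e-06). Its difference bm-Mac minus ad-MG was -0.84 ± 0.12 (SE, limma adjusted p = 3.09e-06). Fbp1 was 0.36 higher in bm-Mac than in ad-MG (limma adjusted p = 0.00354), which no longer passed after a second quantile normalization (0.24, limma adjusted p = 0.051). These differences were larger than the spread between replicates but below 2-fold. For Cyp4a12a, no pair of the 8 passed without the 2-fold minimum on the deposited scale. Its difference iPS-MG minus iPSC did when arrays were centred on their medians (0.24, limma adjusted p = 0.015) or iPS-MG replicate 1 was left out (0.24, limma adjusted p = 0.0329).

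**Figure D3:**
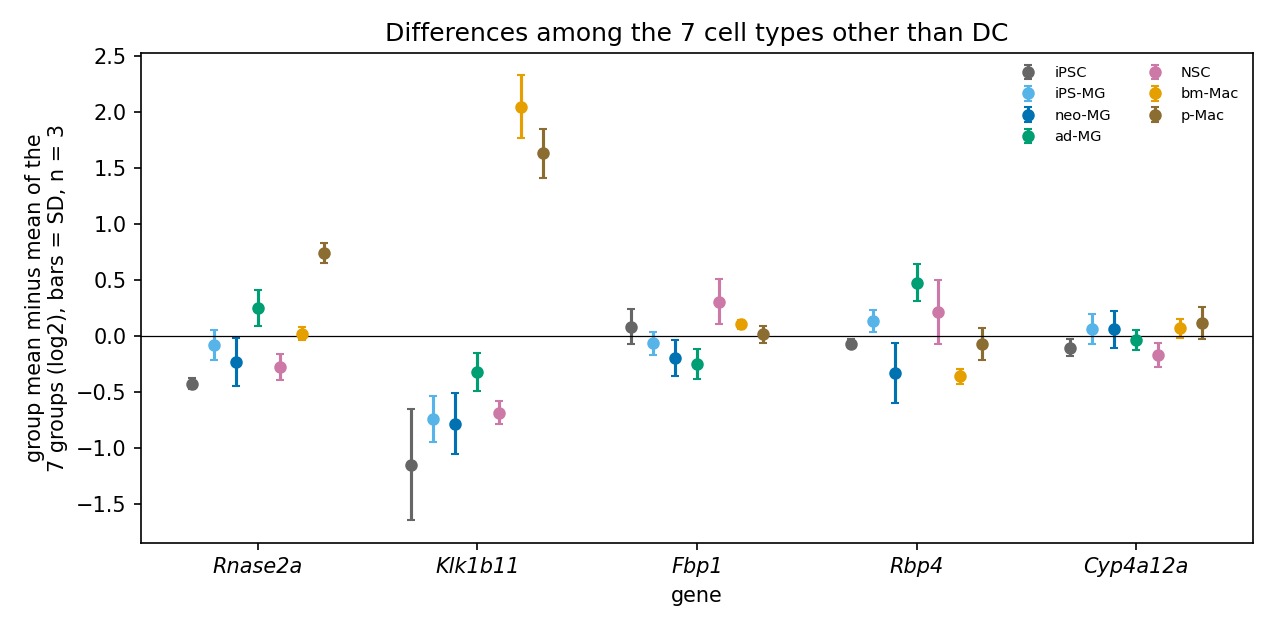
Group mean minus the mean of the 7 groups other than DC (y axis, log2; bars are SD, n = 3) for the 5 genes (x axis), coloured by cell type. Klk1b11 has the widest range, 3.19, with bm-Mac and p-Mac on top, and Cyp4a12a the narrowest, 0.28.

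Outside DC the 5 genes did not share 1 order of cell types. Across the 7 other group means, Pearson's r between pairs of the genes ran from -0.49 (Fbp1 with Cyp4a12a) to 0.69 (Rnase2a with Klk1b11). These r values describe 7 points that share libraries and scaling. Likeness to other genes was measured over all 8 groups as the root mean square difference of group means after each gene's own mean was taken off. For Rnase2a the nearest genes were Klk1b1 at 0.327, Cyp4a12b at 0.810 and Chil4 at 0.822. For Klk1b11 they were Klk1b1 at 0.678, the lectin receptor Mgl2 at 0.782 and the orphan receptor Gpr141 at 0.783. Fbp1 was nearest to Klk1b1 at 0.505, Chil4 at 0.660 and Cyp4a12b at 0.660. Rbp4 was nearest to Ccl17 at 0.356, Cyp4a12b at 0.359 and Chil4 at 0.458, and Cyp4a12a to Cyp4a12b at 0.204, Chil4 at 0.251 and Ccl17 at 0.261. The height of DC dominates this measure, and Mgl2 and Gpr141 joined the Klk1b11 list with bm-Mac as their next group, as for Klk1b11 itself.

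The relatives of each gene show whether a whole family stood high in DC. Klk1b11 lies in the kallikrein cluster of chromosome 7, with Klk1b8, Klk1b1 and Klk1b9 on one side and Klk1b21, Klk1b26 and Klk1b27 on the other, by RefSeq's gene order. Of 8 other Klk1b genes measured by a single-gene probeset, 4 were above each of the 7 groups by limma's calls, and 5 had all DC arrays above every other array. The levels of such near-identical genes are uncertain, because a probe of one can bind RNA of another.

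Klk1b1 was at 12.59, 12.56 and 12.43 in DC against a p-Mac mean of 6.38 ± 0.27 (SD, n = 3). Klk1b9 was at 11.08, 11.05 and 11.06 against a p-Mac mean of 7.50 ± 0.27 (SD, n = 3), and Klk1b27 at 10.75, 10.74 and 10.74 against 6.15 ± 0.098 (SD, n = 3), again p-Mac. In all 3 the DC arrays were close together and far above the rest, and the next group was p-Mac. For Klk1b11 the next group by mean was bm-Mac, whose arrays overlapped with those of p-Mac. Klk1b7-ps, a pseudogene by its name and chosen here after its values were seen, was at 8.38, 8.87 and 9.54 in DC, a wide spread, against a p-Mac mean of 7.21. Klk1b22 was at 6.51, 6.56 and 7.30, which is 0.61 above p-Mac on average and below the 2-fold minimum against that group.

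The lead over the next group was 0.21 ± 0.099 (SE) for Klk1b5, 0.24 ± 0.12 (SE) for Klk1b24 and 0.14 ± 0.11 (SE) for Klk1b16, with limma adjusted p of 0.0663, 0.108 and 0.264. The cluster was thus uneven in DC, from a lead of 6.14 for Klk1b1 to one of 0.14 for Klk1b16. Another 3 probesets, which the annotation assigns to 2 or 3 Klk1b genes at once and which name no gene here, had DC means of 9.86, 11.45 and 12.97 and leads of 3.89, 3.64 and 4.70.

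**Figure D4:**
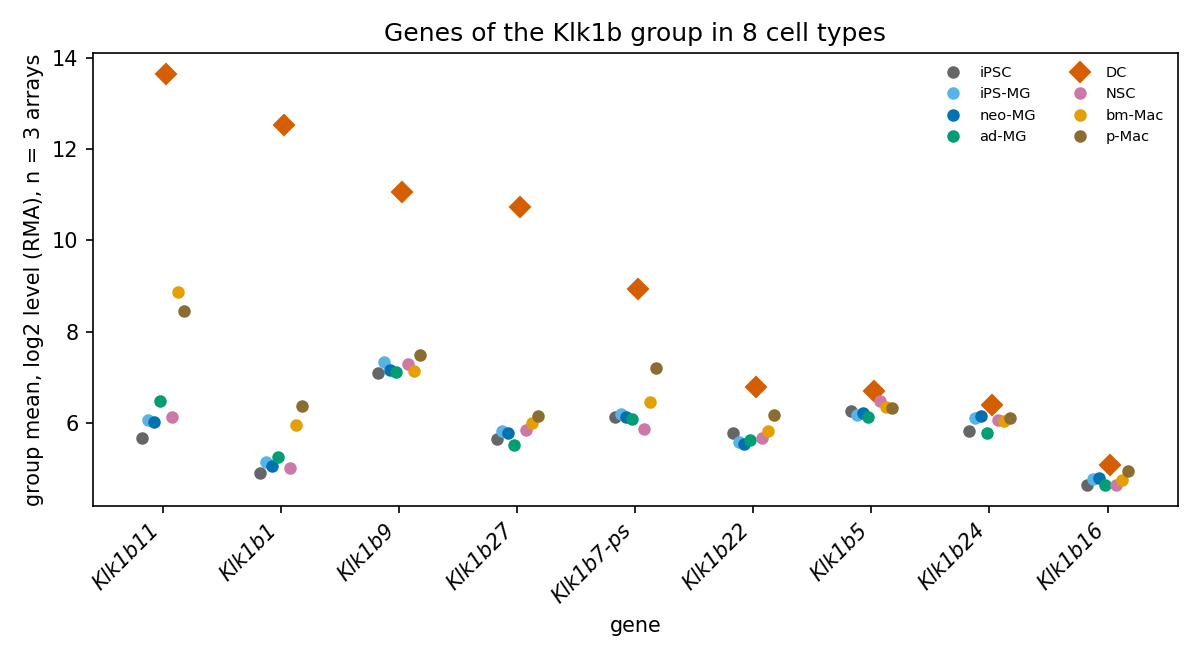
Group mean log2 level (y axis, n = 3 arrays) of 9 Klk1b genes (x axis) in the 8 cell types, with DC as diamonds. DC leads widely for Klk1b11, Klk1b1, Klk1b9 and Klk1b27 and by 0.14 for Klk1b16; heights are to be read within a gene, not between genes.

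Cyp4a12b, which neighbours Cyp4a12a, was at 11.01, 11.04 and 11.15 in DC against a p-Mac mean of 5.86 ± 0.044 (SD, n = 3). Its lead was 5.21 ± 0.077 (SE), given as a description with no test, as for Cyp4a12a. The pair is near-identical in sequence and its probes may share RNA, so these are not separate observations of 1 pattern. Cyp4a14, another fatty acid hydroxylase of the same cluster, was at 6.47, 6.40 and 6.33 in DC and 0.29 lower there than in p-Mac. So DC was not the highest group for every Cyp4a gene.

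Rnase2b, a near neighbour of Rnase2a, was at 5.77, 6.35 and 6.23 in DC and at a mean of 5.85 ± 0.27 (SD, n = 3) in bm-Mac. The DC arrays overlapped with the others, and the lead of 0.27 ± 0.12 (SE) did not pass the test (limma adjusted p = 0.0754). Fbp2, the muscle form of fructose-1,6-bisphosphatase and a neighbour of Fbp1, was at 7.90, 8.06 and 7.91 in DC. It led p-Mac by 0.33 ± 0.082 (SE, limma adjusted p = 0.00117), below 2-fold. For both pairs the large lead was seen in 1 of the neighbouring genes and not in the other.

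The pathways of the 5 genes were followed through gene lists without the 5 genes themselves, by comparing DC with the equal-weight mean of the 7 other groups. By limma, 8.28% of all genes were called at adjusted p under 0.05 and 2-fold in that comparison, 4.21% higher and 4.07% lower in DC, and the median difference over all genes was -0.01. A call against that mean can come from a few groups far from the rest. A gene called higher need not be highest in DC, and one called lower need not be lowest there. These lists were drawn up with earlier results of the same arrays known, so their counts are not independent evidence.

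In the ribonuclease A superfamily, 2 of 14 genes were higher in DC, none was lower, and the median difference was 0.06. The higher genes were Ear6, another eosinophil-associated ribonuclease, by 2.53 ± 0.089 (SE), and Rnase6, an antimicrobial ribonuclease of macrophages, by 1.88 ± 0.096 (SE). Both were nearly as high in bm-Mac, with Ear6 at 9.85 in DC against 9.30 and Rnase6 at 9.96 against 9.44. Lowest in the list were Rnase12 at -0.24 and Rnase10 at -0.11, which did not pass. Among 19 kallikreins, 4 were higher, none lower, with a median of 0.33, and the 4 were all Klk1b genes. Klk7 and Klk14, kallikreins of skin, differed by -0.14 and -0.25 and did not pass.

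Of 19 genes of gluconeogenesis and hexose phosphate metabolism, 2 were higher and none lower in DC, with a median of 0.08. Those that rose work in or control glycolysis. Pfkfb4, which makes and breaks fructose-2,6-bisphosphate, was 1.79 ± 0.071 (SE) higher, and Pfkp, a phosphofructokinase subunit that acts opposite to Fbp1, 1.68 ± 0.058 (SE) higher. At the low end were Pfkm at -0.46 and Got1 at -0.23, neither past 2-fold. No gene of this list was above each of the 7 groups.

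Among 30 genes of retinoid transport and metabolism, 4 were higher and 2 lower in DC, with a median of -0.02. Aldh1a2, which makes retinoic acid and is known in tolerance-promoting dendritic cells, was at 10.24, 10.19 and 10.47 in DC. It led ad-MG, the next group, by 1.64 ± 0.11 (SE, limma adjusted p = 6.35e-13), and was the 1 gene of the list above each of the 7 groups, a count that became 2 when arrays were centred on their medians. Dhrs9, a short-chain dehydrogenase, was 2.86 ± 0.073 (SE) higher than the mean of the 7. Named after their values were seen, the receptor Rara was 1.73 ± 0.053 (SE) and the retinal reductase Dhrs3 1.08 ± 0.057 (SE) higher. Dhrs9 and Dhrs3 were not highest in DC, with Dhrs9 at 11.32 against 11.62 in bm-Mac and Dhrs3 at 12.74 against 13.15 in p-Mac. Ttr, the plasma partner of Rbp4, was at -1.05 and Aldh1a1, another retinal dehydrogenase, at -1.03. That count of 2 lower genes fell to 0 when the arrays were rescaled in either of the ways tried.

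Of 13 Cyp4 hydroxylases, 1 was higher, Cyp4a12b, and none lower, with a median of -0.03. The next were Cyp4f13 at 0.49, and at the low end Cyp4f39 at -0.18 and Cyp4f37 at -0.11. In the list of PPAR receptors and targets, which are regulators of lipid genes such as the Cyp4a family, 2 of 20 genes were higher and 1 lower, with a median of 0.13. The scavenger receptor Cd36 was 2.64 ± 0.086 (SE) higher and Pparg 1.91 ± 0.076 (SE) higher. Both were at about the same level in bm-Mac, with Cd36 at 13.25 in DC against 13.37 and Pparg at 11.86 against 11.93. Pdk4 was lower by a difference of -1.65 ± 0.059 (SE), and Fabp4 was at -0.94 and did not pass. Pdk4 was at 6.66 in DC, 12.09 in p-Mac and 10.79 in iPSC, and between 6.83 and 7.77 in the rest.

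**Figure D5:**
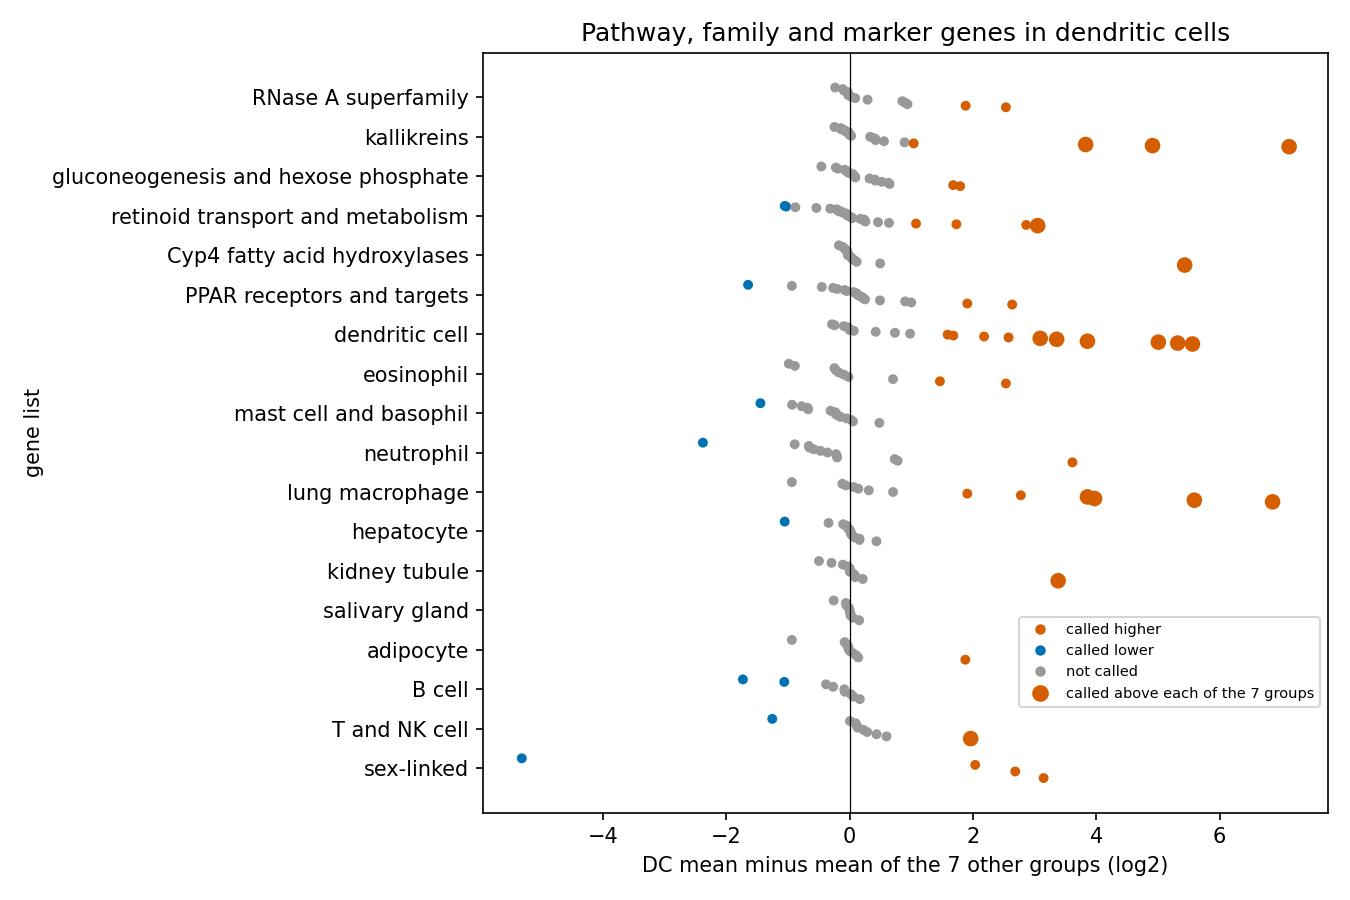
DC mean minus the mean of the 7 other groups (x axis, log2) for each gene of 18 lists (y axis), without the 5 genes; small coloured points were called higher or lower by limma, and large points were above each of the 7 groups. In the lists named for dendritic cells and lung macrophages, 6 and 4 genes were above each of the 7 groups, while in most other lists the points gather near 0.

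The DC label was checked against 22 dendritic cell markers. Of these, 11 were higher in DC than in the mean of the 7 groups, none was lower, the median difference was 1.28, and 6 were above each of the 7 groups. The 6 were Itgax (CD11c) at 13.19, Mgl2 at 13.42, Ccl17 at 13.27, Irf4 at 12.42, Clec9a at 10.20 and Ccl22 at 10.34. Antigen presentation genes were not highest in DC, with H2-Aa at 11.29 against 12.53 in bm-Mac and Cd74 at 11.46 against 12.66. Flt3, the receptor of the dendritic cell growth factor, was at 7.07 in DC against 7.80 in bm-Mac, and Zbtb46, a dendritic cell transcription factor, at 8.21 against 8.02 in p-Mac. Neither Flt3 nor Zbtb46 passed both thresholds, nor did Kmo and Cd86, which were at -0.24 and -0.29. Named after their values were seen, the lectin Cd209a was at 9.55 in DC against 12.82 in p-Mac, the lectin Siglech at 7.73 against 8.26 in bm-Mac, the transcription factor Irf8 at 11.37 against 12.64 in p-Mac and the chemokine receptor Xcr1 at 7.09 against 7.40 in p-Mac. The markers thus bore out the label in part. The DC arrays were close to each other: r across genes between them was 0.9971 to 0.9983, against at most 0.948 with any other array. Array medians lay between 7.96 and 7.98 in DC and up to 8.21 elsewhere.

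Markers of cells in which the 5 genes are better known were also read. For lung macrophages, 6 of 13 markers were higher in DC, none was lower, the median difference was 0.70, and the mean level over the list was 10.14 to 10.16 in DC arrays against 6.89 to 9.13 elsewhere. Chil3, a chitinase-like protein, led there with 13.45 in DC against 11.35 in bm-Mac, followed by the carbonic anhydrase Car4 at 13.41 against 11.20 in iPSC and Plet1 at 12.16 against 10.51 in iPSC. Itgax, held by the dendritic cell list too, was the last of the 4 above each group. Krt79 at -0.12 and Fabp4 at -0.94 were lowest and did not pass. Fabp4 was at 9.11 in DC against 12.16 in p-Mac. Marco, named after its values were seen, was at 8.12 in DC against 10.20 in p-Mac. The part of cells with these markers in the levels of the 5 genes was not tested.

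For eosinophils, 2 of 10 markers were higher and none lower in DC, with a median of -0.13 and a mean list level of 7.83 to 7.90 in DC against 6.83 to 9.15 elsewhere. The higher ones were Ear6 and Il13ra1, an interleukin receptor chain at 1.46. Il13ra1 was at 11.69 in DC and at 11.84 in ad-MG. Ccr3, the eosinophil chemokine receptor, was at 6.91 in DC against 11.17 in bm-Mac, and Alox15 at 7.45 against 12.37 in p-Mac. Ear6, at 9.85 against 9.30 in bm-Mac, and Siglecf, an eosinophil and lung macrophage lectin named here after its values were seen, at 8.85 against 8.59 in bm-Mac, had their highest mean in DC without a 2-fold lead. The part of eosinophils in the Rnase2a level was not tested. Leaving out neo-MG replicate 1, DC replicate 1 or DC replicate 2 put 1 eosinophil marker among the lower genes.

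For hepatocytes, 0 of 16 markers were higher and 1, Ttr, was lower, a call lost on rescaling, with a median of 0.01. The mean level of that list was 7.07 to 7.13 in DC and 6.85 to 7.42 elsewhere. For kidney tubule, 1 of 12 was higher, the aspartic protease Napsa at 11.79 in DC against 10.49 in bm-Mac, and Lrp2 and Aqp1 were lowest at -0.50 and -0.30. The median was 0.003, and the list mean was 7.39 to 7.43 in DC and 6.99 to 7.43 elsewhere. For salivary gland, 0 of 9 were higher or lower, with a median of 0.00058 and list means of 6.22 to 6.26 in DC and 6.14 to 6.62 elsewhere. For adipocytes, 1 of 10 was higher, the lipase Lpl at 1.88, and the median was -0.01. Lpl was at 13.19 in DC and at 13.55 in neo-MG. The adipocyte list mean was 7.98 to 8.02 in DC and 7.0 to 8.5 elsewhere. In these 4 lists the mean level of the DC arrays lay within the range of the other arrays, while Napsa alone was above each of the 7 groups. The part of such cells in the levels of the 5 genes was not tested.

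Markers of other blood lineages were mostly not called in DC. Of 14 mast cell and basophil markers none was higher and Cpa3 was lower at -1.45, with a median of -0.23. List means were 6.52 to 6.54 in DC and 6.35 to 8.57 elsewhere. Cpa3 was at 5.20 in DC, 11.54 in bm-Mac and 9.12 in p-Mac, and between 5.05 and 5.28 in the rest. Among 13 neutrophil markers the collagenase Mmp8 was higher at 3.61 and Csf3r lower at -2.38. The median was -0.36, with list means of 7.61 in DC and 6.61 to 10.73 elsewhere. Mmp8 was at 11.40 in DC against 10.87 in p-Mac, a lead below 2-fold. Csf3r was at 7.45 in DC, above 7.04 in iPSC and 6.94 in NSC. Of 9 B cell markers none was higher, and Cd79b at -1.06 and Ebf1 at -1.73 were lower, a count that fell to 1 on rescaling or without DC replicate 3. Their median was -0.09, with list means of 6.76 to 6.94 in DC and 6.93 to 8.31 elsewhere. Ebf1 was at 6.47 in DC, 6.66 in neo-MG and 11.97 in NSC. Of 10 T and NK cell markers the granzyme Gzma was higher at 1.96 and above each of the 7 groups, and Cd4 was lower at -1.26. Their median was 0.18, with list means of 6.87 to 7.05 in DC and 6.42 to 7.19 elsewhere. Gzma is not kept when genes of low level are left out.

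Sex-linked transcripts also differed between DC and the other groups. Xist, the transcript of the inactive X chromosome, was at 6.94 in DC and between 9.18 (iPSC) and 13.22 (bm-Mac) elsewhere. The Y-linked genes Eif2s3y, Uty and Kdm5d were at 10.80, 10.74 and 9.61 in DC and at 11.13, 10.40 and 9.33 in NSC, which had Xist at 12.95. In ad-MG, bm-Mac and p-Mac, Eif2s3y was between 5.01 and 5.20. Cyp4a12a, known as male-predominant in kidney, was lowest of all groups in NSC, at 5.59. In iPS-MG and neo-MG, where Eif2s3y was at 10.08 and 10.13, Cyp4a12a was at 5.82 in both. Xist was at 12.15 in iPS-MG and at 12.12 in neo-MG. These groups, like NSC, thus had Xist and Eif2s3y high together and are not male counterparts to DC. The part of sex in the Cyp4a12a level was not tested. DC was the 1 group with Xist at its lowest and all 3 Y-linked genes high, so sex and cell type cannot be told apart there.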

How the data were processed

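The 5 genes and all lists were chosen with earlier results of these data known. RNA (200 ng) was measured on 24 arrays. The authors deposited 1 log2 value per probeset and array, and the submitters' processing notes name RMA and Partek. The log base was inferred from the values (3.14 to 14.43). No detection calls were used, and the number of arrays, 3 per group, limits precision. Of 35556 probesets, 21218 carried 1 gene symbol in the platform annotation and 1881 several, which name no gene here. The probeset of highest mean was kept for each of 18820 genes.

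Samples were grouped by the labelled cell type. Contrasts, and F tests over the 21 arrays without DC, were computed with limma 3.58.1 in R 4.3.3, with Benjamini-Hochberg adjustment over all genes, and a call needed adjusted p under 0.05 and 2-fold. The fit was tested on simulated data. Beside the 5 genes, named genes were drawn from the 3 genes of nearest profile to each, the 10 others with the largest DC lead, close relatives, identity and sex-linked genes, and in each list the 2 highest, the 2 lowest and any above each group. Names outside this rule are said to be chosen after their values were seen. Alternatives were 2 rescalings, averaged probesets, a filter on low values, a replicate block, limma's trend and robust options, no fold minimum, a fit to all arrays and each array left out. Windows and gene order came from RefSeq.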

Additional observations from a re-analysis of the deposited data

How the results depend on the processing

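The lead of DC for Rnase2a was 6.96 and moved by more than 1 SD to 7.19 when arrays were centred on their medians and to 7.12 after a second quantile normalization. These rescalings shifted the median DC difference over all genes by 0.085 and 0.050. Leaving out each array in turn gave leads of 6.91 to 7.03 for Rnase2a, 4.63 to 4.88 for Klk1b11, 6.92 to 7.11 for Fbp1, 5.42 to 5.58 for Rbp4 and 5.77 to 5.90 for Cyp4a12a. Without the 2-fold minimum, the 146 genes above each of the 7 groups became 926 and the 1559 genes called against their mean became 10458. With arrays left out these counts were 145 to 153 and 1548 to 1577. The span of Cyp4a12a over the 7 other groups was 0.24 to 0.37 with arrays left out, and its adjusted p rose to 0.113 (limma), so this small difference depends on single arrays. The cause was not tested. The filter on low values left 12152 genes, and the 5 genes passed it by their level in DC, except Klk1b11, which bm-Mac and p-Mac also carried past it, so passing says nothing of their stability. Deviations of same-numbered arrays of different groups correlated at -0.26 to 0.25 (median 0.012). Those of arrays with other numbers correlated at -0.31 to 0.30 (median -0.00042). With 3 arrays per group, these values cannot show whether same-numbered arrays share a preparation. With the replicate block, 146 genes were above each of the 7 groups, the same 146 genes. Of 3347 alternative values, 3264 counted as the same. Tested differences did so when their call was kept, counts when within 1.5 times and untested leads when within 1 SD. Pairs not called could change sign, or cross adjusted p of 0.05 below 2-fold, and still count as the same. Fbp1, for example, had p-Mac minus neo-MG at 0.21 on the deposited scale and as low as -0.016 in the alternatives.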
